A study of Homo sapiens with 38 samples.

Results

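The nuclear genes of respiratory complexes II and III and of ATP synthase were followed through CRISPR screens of hepatocellular carcinoma (HCC) cells and through RNA-seq of Hep3B cells with PSTK knockout. Members were protein-coding genes whose symbol began with SDHA to SDHD, SDHAF, UQCR, UQCC or ATP5, together with CYC1 and BCS1L. The guide tables use the older ATP5 names and the RNA-seq table the newer ones. By this rule 35 of 18029 genes and 122 of 66890 guides were members in the Hep3B screen, and 35 of 18036 genes and 122 of 66582 guides in the SNU-398 screen. The same 35 genes were found in both screens. In the RNA-seq table, 43 of 19951 protein-coding genes were members, and 34 genes were measured in all 3 tables under symbols that the rule matches. Another 3 members of the RNA table, ATP5MD, ATP5MPL and ATP5IF1, appear in the guide tables as USMG5, C14orf2 and ATPIF1, which the rule does not match, and their screen values are given apart from the 35. Of the 35 screened genes, 4 were subunits of complex II and 2 its assembly factors, 9 were subunits of complex III and 3 its assembly factors, and 17 carried an ATP5 symbol, among them ATP5SL (DMAC2), known as an assembly factor of complex I.

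Complex II (succinate dehydrogenase) oxidizes succinate to fumarate in the citrate cycle and passes the electrons to ubiquinone in the inner mitochondrial membrane. Complex III takes electrons from ubiquinol, hands them to cytochrome c and moves protons across the membrane. ATP synthase lets the protons flow back through a ring of c subunits and couples the rotation of that ring to ATP synthesis in its F1 head. All subunits of complex II are nuclear, whereas cytochrome b of complex III and subunits a and 8 of ATP synthase are encoded by mitochondrial DNA. Complex II and complex III also sit at the junction of respiration with the ubiquinone pool, which supplies reduced quinone as a lipid antioxidant.

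Hep3B and SNU-398 are human HCC lines. Both carried Cas9 and the TKOv3 library, a pool of guides that each knock out 1 gene per cell. Each line gave 8 groups with 2 libraries each: cells at T0, cells grown for 14 days without inhibitor (T1, taken as vehicle because it is the remaining group without a drug name), and cells grown for 14 days with Sorafenib, Regorafenib, Lenvatinib, Erastin, Abemaciclib or Palbociclib. The first 3 are kinase inhibitors used against HCC, Erastin blocks the import of cystine and triggers ferroptosis, and the last 2 act on the cell-cycle kinases CDK4 and CDK6. Each inhibitor had its own dose, set by its effect on growth, and without the concentrations the inhibitors are placed side by side and not compared. For RNA-seq, 3 libraries of Hep3B cells labelled wild type were set against 3 labelled PSTK-/-, which the study made with a vector carrying a pair of guides in Cas9-expressing cells selected with puromycin. PSTK is a kinase in the synthesis of selenocysteine.

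Total guide counts ranged from 11198022 to 46376708 per library in Hep3B and from 11558112 to 46043970 in SNU-398. Between 77.2% and 97.4% of the counts above 0 in a library were even numbers, so that most counts moved in steps of 2. At T0, 68 of the 122 member guides in Hep3B (55.7%, against 50.4% of all guides) and 65 in SNU-398 (53.3%, against 52.0%) had a mean count of at least 30. In vehicle 52 (42.6%) and 55 (45.1%) did, and 8 member genes in Hep3B and 5 in SNU-398 had no such guide left. Of all guides in Hep3B, 4.34% and 6.43% had no count at T0, 38.7% and 39.4% in vehicle, and 43.8% to 52.8% with an inhibitor. In SNU-398 these were 10.7% and 12.6%, 25.3% and 29.3%, and 22.5% to 40.9%. A guide falling to 0 was therefore common. No source states that same-numbered libraries or the 2 libraries of a group came from separate cultures, so the tests measure a spread that may be only technical. The second Erastin library of SNU-398 stood apart: the correlation of its log2 counts was 0.952 with the first vehicle library of Hep3B and 0.948 with that of SNU-398, whereas the first Erastin library gave 0.878 and 0.947. Medians, means and edgeR counts for SNU-398 include it, and the values without it stand beside those it moved.

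Growth without inhibitor came first. NormZ, the normalized Z-score of DrugZ, sums the log2 changes of the guides to a gene, each divided by the spread expected at its count. A NormZ below 0 means that cells with those guides became less abundant. A gene was called at a one-sided p under 0.01 in either direction. Between T0 and vehicle, 1 of 35 members was called lower in Hep3B, where 1.04% of all genes were, and 3 of 35 in SNU-398, where 1.24% of all genes were. No member was called higher in either line, where 1.17% and 1.02% of all genes were, while 0 members in Hep3B (5.33% of all genes) and 2 in SNU-398 (4.74%) were higher at an unadjusted p under 0.05. At that threshold 7 members were lower in Hep3B, where 4.74% of all genes were, and 4 in SNU-398, where 4.88% were. The 7 in Hep3B all belonged to the enzyme complexes themselves: UQCRC2, UQCRFS1, UQCRQ, UQCR10, SDHB, ATP5C1 and ATP5J. None of the calls passed adjustment over all genes, the smallest false discovery rate being 0.489 in Hep3B and 0.215 in SNU-398.

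The gene called lower in Hep3B was UQCRC2, a core subunit of complex III, with a NormZ of -3.24 (rank 17 of 18025 genes). Its guide 4, counting in table order, had 2170 and 1244 counts at T0 and 408 and 238 in vehicle. Per 10000000 counts that was 468 and 454 at T0 and 166 and 197 in vehicle, a log2 change of -1.47 and -1.19. Guide 3 fell by 1.39 and 1.52 on the log2 scale and guide 2 by 1.40 and 0.77, while guide 1 held only 20 and 6 counts at T0. All 3 well-covered guides were thus lower in both vehicle libraries than in either T0 library. In SNU-398 the NormZ of UQCRC2 was -0.73.

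In SNU-398, ATP5B, which encodes the catalytic beta subunit of ATP synthase, was called lower with a NormZ of -3.47 (rank 22 of 18022). Its guide 2 went from 916 and 913 per 10000000 at T0 to 581 and 629 in vehicle, and its guide 3 from 46.0 and 44.1 to 23.7 and 15.6. CYC1, cytochrome c1 of complex III, had a NormZ of -3.23 (rank 37, false discovery rate 0.292). Its guide 1 went from 234 and 235 to 97.3 and 128 per 10000000, and its guide 2 from 278 and 150 counts to 22 and 24, a log2 change of -2.12 and -1.22. In all of these guides both vehicle libraries were below both T0 libraries. UQCR10, an accessory subunit of complex III, had a NormZ of -2.47 (rank 165, false discovery rate 0.726), with its guide 4 per 10000000 at 28.2 and 17.7 at T0 and 1.82 and 1.73 in vehicle. Without the first vehicle library CYC1 (-2.01) and UQCR10 (-2.002) no longer passed and ATP5B still did, at -2.91. UQCR10 also did not pass without the first T0 library (-2.22) or with guides of at least 30 mean T0 counts (-1.89). In Hep3B these genes had a NormZ of -0.99, 0.11 and -1.71, in the same order.

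The 3 genes of the c subunit, which encode the same mature ring protein, gave no call in either line. ATP5G1, ATP5G2 and ATP5G3 had -0.53, -0.69 and -0.10 in Hep3B, while their NormZ in SNU-398 was 1.19, -0.64 and 0.60. Of complex II, the flavoprotein subunit SDHA had -1.46 and -1.24 in the 2 lines and the iron-sulfur subunit SDHB -1.79 and -0.65, whereas the membrane anchors SDHC (-0.15 and 0.56) and SDHD (0.25 and 0.93) lay nearer to or above 0. The gamma subunit ATP5C1 had -2.18 in Hep3B and 0.27 in SNU-398, and the Rieske protein UQCRFS1 -1.89 and 0.55. None of these passed the call.

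The median NormZ of the members was -0.21 in Hep3B, against -0.03 over all genes, and -0.0039 in SNU-398, against -0.0039. The cytosolic ribosome, which all cells need, had a median of only -0.37 and -0.44, and olfactory receptor genes had 0.06 and 0.15; 3 and 6 genes of the cytosolic ribosome were called lower. Complex I had a median of 0.03 and -0.15, cytochrome c oxidase -0.24 and -0.49, and the mitochondrial ribosome -0.30 and -0.31. Across the 35 members the NormZ values of the lines were weakly related (Pearson r = 0.17, Spearman rho = 0.20), as a description over genes that share libraries within a line.

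**Figure D1:**
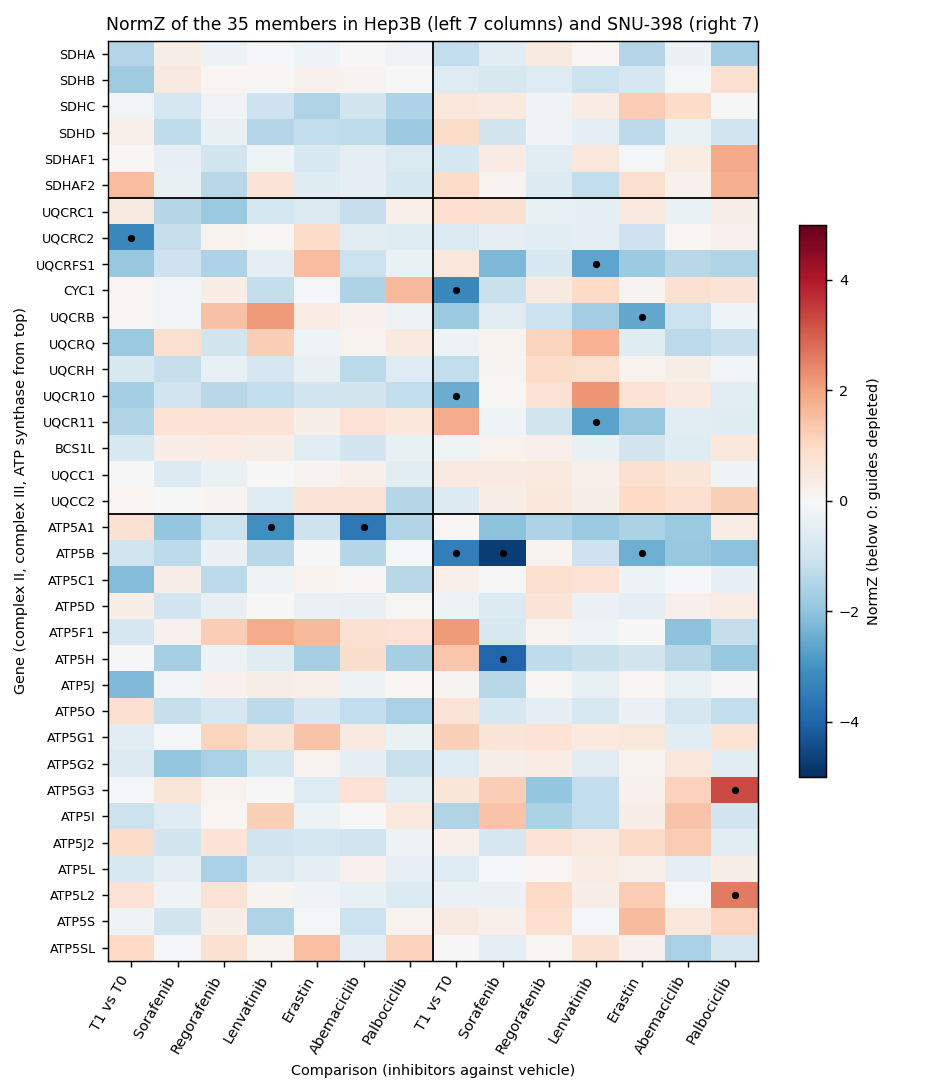
NormZ of the 35 members (rows, ordered by complex) in 14 comparisons (columns): vehicle against T0 and 6 inhibitors against vehicle, for Hep3B and then SNU-398. Blue marks depletion and red enrichment, and a dot marks a call at p under 0.01; 14 cells carry a dot, led by ATP5B in SNU-398 Sorafenib at -4.70.

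Each inhibitor was then set against the vehicle libraries of its line. These 6 comparisons share the 2 vehicle libraries, so a high or low vehicle count enters all 6. In the study's terms a resister has a NormZ below 0 with an inhibitor, meaning that its loss left fewer cells than in vehicle, and a sensitizer has a NormZ above 0. In Hep3B, ATP5A1 was the only member called, as a resister to Lenvatinib (1 of 35 members, against 1.37% of all genes) and to Abemaciclib (1 of 35, against 1.11%). No member was called lower with Sorafenib, Regorafenib, Erastin or Palbociclib, where 1.1%, 1.37%, 1.13% and 1.31% of all genes were. No member was called higher with Sorafenib (0.959% of all genes), Regorafenib (0.754%), Lenvatinib (0.817%), Erastin (1.03%), Abemaciclib (1.1%) or Palbociclib (0.717%). At an unadjusted p under 0.05, 2 members were higher, both with Lenvatinib (4.75% of all genes): ATP5F1 (1.84) and UQCRB (2.13). At that threshold 2 members were lower with Sorafenib (4.75% of all genes), 2 with Palbociclib (5.33%), and 1 each with Regorafenib (5.39%), Lenvatinib (5.11%), Erastin (5.08%) and Abemaciclib (4.80%).

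ATP5A1 encodes the alpha subunit, which forms the F1 head together with the beta subunit. Its NormZ in Hep3B was -3.58 with Abemaciclib (rank 8 of 17568, false discovery rate 0.339) and -3.08 with Lenvatinib (rank 34 of 17624, false discovery rate 0.486). With the other inhibitors it was -1.95 (Sorafenib), -1.52 (Palbociclib), -1.09 (Regorafenib) and -1.02 (Erastin), which gave a mean of -2.04, the lowest among the members. In vehicle against T0 it was 0.74.

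The guides of ATP5A1 did not move alike. Guide 4 held 198 and 104 counts in vehicle and 2 and 0 with Abemaciclib, a log2 change of -3.88 and -4.19. The same guide changed by -3.48 and -3.50 with Sorafenib, by -2.67 and -2.08 with Lenvatinib and by -2.19 and -2.71 with Palbociclib. Guide 3, with 975 and 485 counts in vehicle, changed by -1.78 and -1.68 with Abemaciclib but by 0.03 and 0.03 with Regorafenib. Guide 2 changed by -3.24 and -2.43 with Lenvatinib and by -2.52 and -1.74 with Abemaciclib, yet by 1.13 and 1.55 with Erastin. Guide 1 had 6 and 6 counts at T0 and none in any of these libraries. With Abemaciclib and with Lenvatinib, all 3 measured guides were lower in both libraries than in vehicle. Of all guides, 49.6% and 52.4% had no count with Abemaciclib and 50.0% and 49.0% with Lenvatinib, against 38.7% and 39.4% in vehicle.

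Among the members, 2 ATP synthase subunits had the lowest NormZ with Sorafenib in SNU-398. The 3 c subunit genes lay above 0 there, between 0.27 and 1.25. In the same screen 9 of 44 complex I genes were called lower (median -0.41, against -0.22 for the members). So were 3 of 33 cytochrome c oxidase genes and 1 of 75 mitochondrial ribosome genes. ATP5B and ATP5H were called as resisters to Sorafenib (2 of 35 members, against 1.51% of all genes), and they were the members that passed adjustment over all genes in any screen. ATP5B had a NormZ of -4.70 (rank 13 of 17903, false discovery rate 0.0018). Its guide 2 had 1278 and 727 counts in vehicle and 294 and 302 with Sorafenib, which per 10000000 was 581 and 629 against 139 and 143. Its guide 3 had 52 and 18 counts in vehicle and none with Sorafenib, while guides 1 and 4 held at most 6 counts in these libraries. Both covered guides fell in both libraries, by 2.03 to 2.52 on the log2 scale. Guide 3 ended at 0 counts, so the size of its fall was set by its vehicle count and the pseudocount of 5.

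ATP5H encodes subunit d of the peripheral stalk, which holds the F1 head still against the turning ring. Its NormZ with Sorafenib was -3.95 (rank 26, false discovery rate 0.0264). Guide 3 went from 142 and 78 counts in vehicle to 2 and 2, a log2 change of -3.55 and -3.61. Guide 1 went from 44 and 32 counts to 2 and 0, and guide 4 from 220 and 152 to 116 and 136, a log2 change of -0.82 and -0.97. All 4 guides of ATP5H had a log2 change below 0 in both Sorafenib libraries. With the other inhibitors its NormZ lay between -0.94 and -1.91 in SNU-398 (the former with Erastin, and -0.68 without the second Erastin library), and in Hep3B it was -1.64 with Sorafenib.

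With Lenvatinib, UQCR11, an accessory subunit of complex III, and UQCRFS1, its Rieske iron-sulfur protein, were called as resisters in SNU-398 (2 of 35, against 1.36%), with a NormZ of -2.66 and -2.65 and false discovery rates of 0.522 and 0.525. UQCR11 rested on guide 1, with 116 and 70 counts in vehicle and none with Lenvatinib, and on guide 2, with 66 and 16 counts and then 0 and 2. UQCRFS1 rested on guide 1, which went from 56 and 36 counts to none, and on guide 2, which went from 132 and 86 to 42 and 28. With every guide counted as an observation, UQCRFS1 had -2.02 and no longer passed. Without the second Lenvatinib library UQCR11 had -2.32 and did not pass. UQCR11 had a NormZ of 1.84 in vehicle against T0.

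With Erastin, ATP5B and the accessory complex III subunit UQCRB were called as resisters in SNU-398 (2 of 35, against 1.38%), at -2.46 and -2.56. UQCRB has 1 guide, whose log2 change was -1.37 in the first Erastin library and 0.00 in the second. Without the second library, the one that stood apart, UQCRB had -4.55 and ATP5B -3.01. With the second library alone UQCRB had 0.22 and ATP5B -1.10, so neither was called in both libraries. Both calls also hung on the vehicle libraries: ATP5B had -2.26 without the second and UQCRB -2.14 without the first, and neither value passed.

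No member was called lower in SNU-398 with Regorafenib, Abemaciclib or Palbociclib, where 1.57%, 1.33% and 1.38% of all genes were. With Palbociclib 2 of 35 members were called as sensitizers, against 0.887% of all genes: ATP5G3, a c subunit gene, at 3.30 (rank 10 of 17927, false discovery rate 0.854) and ATP5L2, a copy of the subunit g gene, at 2.62 (rank 76, false discovery rate 0.985). Guides 1 and 2 of ATP5G3 had 2 and 0 counts between them in the vehicle libraries and 16 to 26 with Palbociclib, and its guide 3, the deepest, went from 480 and 297 counts to 760 and 521, a log2 change of 0.65 and 0.46. ATP5L2 has 1 guide, with 24 and 0 counts in vehicle and 88 and 34 with Palbociclib. Its mRNA, under the newer name ATP5MGL, had 1 count in 1 library labelled Hep3B PSTK-KO and 0 in the other RNA libraries. RNA of SNU-398 was not measured. With only guides of at least 30 mean vehicle counts, ATP5G3 had 1.65 and ATP5L2 could not be tested, so neither was called. ATP5L2 also did not pass without the second Palbociclib library (1.99) or the second vehicle library (1.65). No member was called higher in SNU-398 with Sorafenib (0.754% of all genes), Regorafenib (0.562%), Lenvatinib (0.707%), Erastin (0.841%) or Abemaciclib (0.784%), and at an unadjusted p under 0.05 there were 2 with these inhibitors, both with Lenvatinib (4.33% of all genes): UQCR10 (2.22) and UQCRQ (1.74). With Palbociclib 4 members were higher at that threshold (4.58%). Lower at that threshold were 4 members each with Sorafenib (5.0% of all genes), Lenvatinib (5.54%) and Erastin (5.16%), 3 each with Abemaciclib (5.28%) and Palbociclib (5.08%), and 1 with Regorafenib (5.39%).

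Over all 6 inhibitors, the 3 lowest members by mean NormZ in Hep3B were ATP5A1 (-2.04), the complex II anchor SDHD (-1.24) and ATP5O (-1.17), the oligomycin sensitivity-conferring subunit of the stalk. All 3 were below 0 in 6 of 6 screens, as were SDHC, UQCR10, UQCRH and SDHAF1. The highest were ATP5F1, subunit b of the stalk (1.06), UQCRB (0.64) and UQCR11 (0.60), with ATP5F1 and UQCR11 above 0 in all 6. The 6 screens share the vehicle libraries, and how many of all genes kept 1 direction in all 6 was not counted. With Sorafenib in Hep3B, SDHD, SDHAF1, ATP5F1, UQCRB and UQCR11 each rested on 2 guide values that were not 0, and ATP5A1 and ATP5O on 6. In SNU-398 the lowest were ATP5B (-1.99), ATP5H (-1.76) and UQCRFS1 (-1.73), and the highest ATP5L2 (0.80), ATP5S (0.72) and the complex III assembly factor UQCC2 (0.68). UQCR11 and UQCRB thus stood among the highest in Hep3B, and in SNU-398 both had a mean below 0 (-1.14 and -1.20). With Erastin taken without its second library, the 3 lowest in SNU-398 were the same (-2.08, -1.71 and -1.54), ATP5L2 (0.72) and ATP5S (0.71) remained the highest with UQCR10 (0.69) in the place of UQCC2 (0.55), and UQCR11 and UQCRB had -0.94 and -1.53. No member was called in the same direction in 3 or more of the 12 inhibitor screens.

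Within complex II, SDHD lay between -0.39 and -1.82 in Hep3B and between -0.17 and -1.30 in SNU-398 (the latter with Erastin, and -0.96 without the second Erastin library), and so was below 0 in every inhibitor screen without a call in any. SDHC lay between -0.18 and -1.54 in Hep3B and between -0.16 and 1.27 in SNU-398. SDHA lay between -0.25 and 0.29 and SDHB between -0.04 and 0.46 in the Hep3B screens. Of complex III, the core subunit UQCRC1 had a mean of -0.96 in Hep3B and 0.07 in SNU-398, UQCRC2 -0.20 and -0.38, and CYC1 -0.16 and 0.32. The gamma subunit ATP5C1 had -0.40 and 0.13, ATP5G1 0.54 and 0.43, and ATP5G2 -0.97 and 0.06.

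The medians of the members were below 0 with all 6 inhibitors in Hep3B, from -0.21 with Lenvatinib to -0.46 with Sorafenib, while those of all genes lay between 0.00085 and 0.04. Between 19 and 27 of the 35 members were below 0 in these screens, where 48.5% to 49.98% of all genes were. The medians of complex I (-0.33 to -0.52) and of the mitochondrial ribosome (-0.35 to -0.56) were also below 0 with all 6 inhibitors in this line. In SNU-398 the members' medians ran from -0.31 with Lenvatinib to 0.09 with Regorafenib and Erastin, with 15 to 20 members below 0. With Erastin the median was 0.15 and 14 members were below 0 without the second library. Since the vehicle libraries are shared, the 6 medians of a line are not 6 separate observations.

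The difference between Hep3B and SNU-398 was tested for each member and comparison. None of the 245 member tests passed adjustment over all 123475 tests (smallest adjusted p 0.99998), and 13 passed at an unadjusted p under 0.05, against 4.48% of all tests. The widest member differences were UQCRB with Lenvatinib (Hep3B 2.13, SNU-398 -1.72), ATP5G3 with Palbociclib (Hep3B -0.53, SNU-398 3.30), UQCR10 with Lenvatinib (Hep3B -1.24, SNU-398 2.22) and ATP5B with Sorafenib (Hep3B -1.29, SNU-398 -4.70). The calls in one line are therefore not shown to be absent from the other.

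Counts summed per gene were also tested with edgeR's quasi-likelihood test, which reads the spread from the 2 libraries of each group. At an adjusted p under 0.05, 23 of 35 members were lower with Sorafenib in Hep3B, against 41.7% of all genes, and 23 with Abemaciclib, against 40.7%. With Palbociclib 20 were lower (34.7% of all genes), with Lenvatinib 19 (38.8%), with Erastin 18 (35.9%) and with Regorafenib 14 (33.2%). Higher were 3 members with Sorafenib (35.2% of all genes), 5 with Abemaciclib (35.1%), 2 with Palbociclib (30.9%), 8 with Lenvatinib (33.9%), 8 with Erastin (32.8%) and 8 with Regorafenib (28.7%). Between vehicle and T0 in Hep3B, 18 members were lower (33.5%) and 3 higher (29.1%). The same test called 33.1% to 38.3% of olfactory receptor genes lower in the inhibitor screens of this line and 32.2% to 41% higher. With Sorafenib in Hep3B, 68.0% of mitochondrial ribosome genes were lower by this test, 45.5% of complex I genes and 51.7% of cytosolic ribosome genes.

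For ATP5A1 in Hep3B the summed guides stood at 55.5 and 55.3 CPM (counts scaled to library size) in vehicle and at 12.3 and 13.8 with Abemaciclib, 18.3 and 16.2 with Lenvatinib and 22.9 and 22.9 with Sorafenib. For ATP5B in SNU-398 they stood at 60.7 and 65.0 CPM in vehicle and at 14.1 and 14.5 with Sorafenib. Both sums repeat guides already given above, and nearly all of the ATP5B sum was its guide 2. In SNU-398 edgeR called 11 members lower with Sorafenib (21.3% of all genes), 11 with Lenvatinib (23.2%), 8 with Regorafenib (19.4%), 6 with Erastin (14.7%), 4 with Palbociclib (9.49%) and 0 with Abemaciclib (2.38%), where NormZ also called none and 3 members had an unadjusted NormZ p under 0.05. Higher by edgeR were 1 member with Sorafenib (17% of all genes), 9 with Lenvatinib (21.1%), 7 with Regorafenib (17.4%), 1 with Erastin (13.8%), 5 with Palbociclib (7.88%) and 0 with Abemaciclib (2.4%), where no member had a NormZ p under 0.05 for a rise. Between vehicle and T0, 3 were lower (6.75%) and 3 higher (6.35%). The second Erastin library entered the spread that all SNU-398 comparisons share. Without it, a fit added after the data were seen, edgeR called 15 members lower with Sorafenib (30.6% of all genes) and 15 with Lenvatinib (31.9%). Lower were also 11 with Regorafenib (29%), 9 with Palbociclib (21.6%), 6 with Abemaciclib (13.8%) and 10 between vehicle and T0 (19.9%). Higher were 2 with Sorafenib (26% of all genes), 9 with Lenvatinib (29.2%) and 10 with Regorafenib (26.9%). Another 7 were higher with Palbociclib (19%), 2 with Abemaciclib (14.1%) and 5 between vehicle and T0 (19.5%). In this fit the lone Erastin library is assumed to vary like the other groups. Its own counts are not given apart from the sums over the 6 inhibitors below.

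Genes that work beside the members gave few calls, all at an unadjusted p under 0.01. In a given comparison and direction 0.562% to 1.57% of all genes were called. Of 27 related genes looked up in both screens, COQ3, a methyltransferase of ubiquinone synthesis, was a resister in Hep3B to Sorafenib (-2.63) and Abemaciclib (-2.37), and cytochrome c (CYCS) to Palbociclib (-2.35). USMG5 is the older name of ATP5MD, a small ATP synthase subunit, and its 3 calls are not in the counts of the 35: it was a resister in SNU-398 to Abemaciclib (-3.24) and Palbociclib (-2.60), and it was higher in vehicle against T0 in Hep3B (2.71). With the inhibitors in Hep3B its NormZ lay between 0.62 and 2.23, without a call. C14orf2 (ATP5MPL) and ATPIF1 (ATP5IF1) had no call, and C14orf2 had no NormZ with Sorafenib, Erastin or Palbociclib in Hep3B. With Palbociclib in SNU-398 the F1 assembly factor ATPAF2 had 2.99 and fumarase, FH, -2.73.

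RNA-seq then asked which of these genes changed in mRNA when PSTK was targeted. The 6 libraries held 15404153 to 16851558 counts. PSTK itself stood at 4.66, 4.99 and 4.02 CPM in the wild-type libraries and at 4.09, 4.41 and 5.21 CPM in the libraries labelled PSTK-KO (log2 fold change -0.06, SE 0.18, edgeR adjusted p = 0.84), so that the deposited counts do not separate the groups by the targeted gene. Counts over the whole gene do not show what happened at the cut sites. Markers of hepatocytes were near 0 in all libraries: albumin averaged 1.73 and 0.0216 CPM, AFP 0 and 0.0838 CPM and TTR had no count, and of 12 such markers only HNF4A averaged over 1 CPM across the libraries. Their summed level was 26.9 to 31.6 CPM in wild type and 15.7 to 19.99 CPM in the libraries labelled PSTK-KO. The 5 fibroblast markers summed to 56.7 to 64.7 and 40.6 to 44.7 CPM, the 3 endothelial markers to 13.1 to 13.5 and 8.02 to 10.6 CPM, and the 5 blood markers to 1.48 to 2.26 and 1.23 to 2.05 CPM. Most of the fibroblast sum came from COL1A1 and PDGFRB. DCN averaged 3.83 and 1.10 CPM, while COL1A2 (0.0210 and 0.0216 CPM) and LUM (0.0198 and 0.104 CPM) were near 0. By these markers the identity of the libraries labelled Hep3B is uncertain. The part of these differences in the results that follow was not tested, and in bulk RNA fewer cells of a type and less RNA per cell cannot be told apart.

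Subunit mRNAs were more often lower than higher in the libraries labelled PSTK-KO. Of 43 members 41 passed the filter on low counts. The read-through gene ATP5MF-PTCD1 and ATP5MGL (ATP5L2 in the guide tables), with at most 3 counts in a library, did not. At an adjusted p under 0.05 in edgeR's quasi-likelihood test 16 of 41 members were lower (39.0%), against 17.2% of all genes, and 3 were higher (7.32%), against 15.6%. The median log2 fold change was -0.14 among members and 0 over all genes tested, and 30 of the 41 members were below 0. In 18 members the CPM values of the groups did not overlap, 11 lower and 7 higher, against 44.6% of all genes, which is close to the members' share.

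The scaling of the libraries bears on this count. TMM factors were 0.973 to 0.981 in wild type and 1.02 to 1.03 in the libraries labelled PSTK-KO, and the 2 groups did not overlap. With scaling to total counts, added after the data were seen, 7 members were lower (12.4% of all genes) and 4 higher (22.3%), and the members' median was -0.07 where that of all genes was 0.07. Of all called genes 47.6% were higher with TMM and 64.3% with total counts. The 7 members lower under both scalings were SDHA, ATP5F1A, ATP5MC1, ATP5MC3, ATP5MF, ATP5S and CYC1.

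The largest called fall was in SDHA, the flavoprotein of complex II that binds succinate (chromosome 5, 218241 to 256700, plus strand, where the deposited positions of all 43 members overlapped those of GRCh38.p14). It stood at 89.1, 81.7 and 85.7 FPKM (fragments per kilobase, scaled to library size) in wild type and at 61.0, 59.8 and 60.3 FPKM in the libraries labelled PSTK-KO. All 3 libraries labelled PSTK-KO were below all 3 wild-type libraries, and the log2 fold change was -0.51 (SE 0.05, adjusted p = 8.9e-11). It passed in 14 of 14 settings, between -0.44 and -0.54. The other subunits of complex II did not follow to the same extent. SDHB, the iron-sulfur subunit, stood at 27.1, 25.7 and 26.0 FPKM and then at 25.8, 28.4 and 28.4 (log2 fold change 0.07, SE 0.06, adjusted p = 0.46). The anchors SDHC (-0.17, adjusted p = 0.023) and SDHD (-0.24, adjusted p = 0.0091) were lower with TMM and did not pass with total counts (-0.10 and -0.17). The assembly factor SDHAF4, named after its values were seen, had a log2 fold change of -0.53 at 2.34 FPKM in wild type, with an SE of 0.24 and an adjusted p of 0.088.

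In ATP synthase, all 3 genes of the c ring were lower with TMM. ATP5MC1 stood at 48.5, 46.9 and 51.0 FPKM in wild type and at 42.4, 38.1 and 36.1 FPKM in the libraries labelled PSTK-KO, a log2 fold change of -0.33 (SE 0.06, adjusted p = 4.8e-05). ATP5MC3 had a log2 fold change of -0.24 (adjusted p = 0.0012), from 18.7 ± 1.29 to 15.8 ± 0.106 FPKM (SD, n = 3 libraries per group). ATP5MC2 had -0.18 (adjusted p = 0.0067) and, with total counts, -0.11, which did not pass. The FPKM values of all 3 genes were lower in every library labelled PSTK-KO than in every wild-type library.

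The F1 head was uneven. ATP5F1A, the alpha subunit, fell by 0.26 on the log2 scale (SE 0.05, adjusted p = 3.7e-05), from 45.5 ± 0.832 to 38.1 ± 1.29 FPKM (SD, n = 3 per group). ATP5F1B, the beta subunit, had the highest level of the members, 561 ± 5.64 FPKM in wild type and 508 ± 3.50 in the other group, and fell by 0.15 (adjusted p = 0.0051; -0.08 and not passing with total counts). ATP5F1C, gamma, had -0.14 (adjusted p = 0.053). ATP5F1E, the small epsilon subunit, went the other way, from 19.8, 20.6 and 23.6 FPKM to 23.5, 24.9 and 26.4 (log2 fold change 0.22, SE 0.06, adjusted p = 0.0064), and its groups overlapped in FPKM but not in CPM. Of the other falls, ATP5PD, subunit d, had -0.29 (adjusted p = 0.019, groups overlapping), ATP5MF, subunit f, -0.26 (adjusted p = 0.0013), and ATP5S, known as coupling factor B, -0.34 (adjusted p = 0.014).

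ATP5IF1, which blocks ATP hydrolysis by the synthase when the membrane potential drops, was higher by 0.23 (SE 0.08, adjusted p = 0.028), at 20.6, 16.6 and 22.2 FPKM and then 22.3, 22.5 and 25.1. UQCRHL was higher by 0.64 (SE 0.20, adjusted p = 0.013), with 50, 61 and 50 counts and then 63, 88 and 109. It is nearly identical to UQCRH, which had 2362, 2303 and 2732 counts and then 2458, 2723 and 2991, so reads of the common gene could be counted to the rare copy and the value is uncertain. In limma on log2 FPKM neither ATP5F1E, ATP5IF1 nor UQCRHL passed.

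In complex III, CYC1 had -0.22 (SE 0.06, adjusted p = 0.0027), from 157 ± 11.97 to 136 ± 8.78 FPKM (SD, n = 3 per group), with groups that overlapped. The core subunits UQCRC1 (-0.17, adjusted p = 0.0089) and UQCRC2 (-0.14, adjusted p = 0.035) were lower with TMM and had -0.10 and -0.07 with total counts, without passing. UQCRFS1 had -0.13 (adjusted p = 0.075). The assembly factor UQCC1 had -0.25 (adjusted p = 0.011; -0.18 and not passing with total counts). In all, complex II had 3 of 8 members lower and 0 higher, complex III 4 of 14 lower and 1 higher, and ATP synthase 9 of 19 lower and 2 higher, against 17.2% and 15.6% of all genes.

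**Figure D2:**
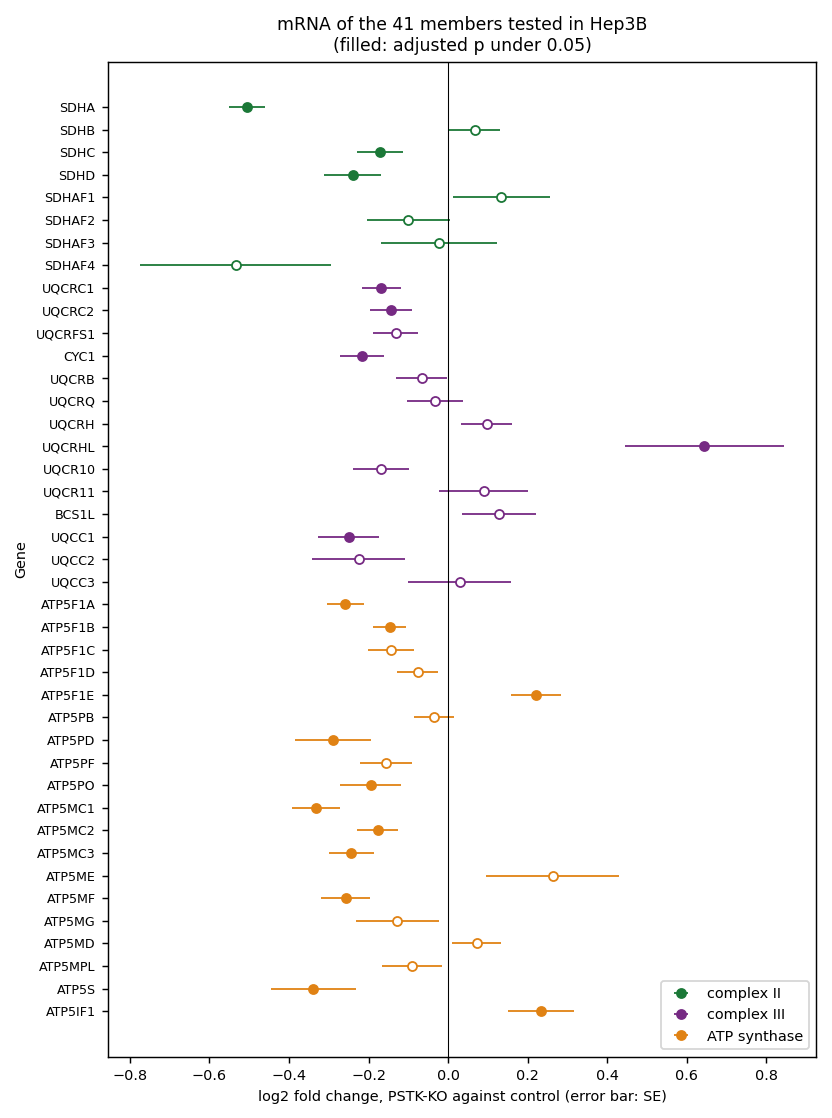
Log2 fold change between libraries labelled PSTK-KO and wild type (horizontal axis, bars show the SE) for the 41 members tested (vertical axis), coloured by complex, with TMM scaling. Filled points have an adjusted p under 0.05: 16 lie below 0, down to SDHA at -0.51, and 3 above 0, up to UQCRHL at 0.64.

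Other gene lists read by the same fit gave 14 of 45 complex I genes lower and 3 higher (median -0.09), 5 of 24 cytochrome c oxidase genes lower and 1 higher (median -0.09), 8 of 78 mitochondrial ribosome genes lower and 2 higher (median -0.0022), and 15 of 75 cytosolic ribosome genes lower and 10 higher (median -0.06). Of all genes 17.2% were lower and 15.6% higher. With total counts these were 7 lower and 3 higher for complex I (median -0.03), 3 and 1 for cytochrome c oxidase (-0.02), 5 and 10 for the mitochondrial ribosome (0.07) and 4 and 15 for the cytosolic ribosome (0.0042). For both ribosomes the higher calls then outnumbered the lower ones, as they did over all genes (22.3% higher and 12.4% lower). Of 27 related genes, 11 were lower with TMM (17.2% of all genes) and COQ8A, an atypical kinase of ubiquinone synthesis, was higher (0.36, adjusted p = 0.00028, against 15.6% of all genes higher). OGDH, a subunit of the citrate-cycle enzyme that supplies succinyl-CoA, stood at 77.8, 73.9 and 72.9 FPKM and then at 48.2, 45.9 and 43.9, a log2 fold change of -0.71 (SE 0.05, adjusted p = 2.3e-13). Fumarase, FH, which takes the product of complex II, had -0.21, and DLST, a partner of OGDH, -0.17. The F1 assembly factor ATPAF1 had -0.40, and the ubiquinone genes COQ9 -0.41, PDSS2 -0.36 and COQ2 -0.31. The mitochondrially encoded partners MT-ATP6 and MT-CYB had -0.29 and -0.16, ETFDH, which also feeds electrons to ubiquinone, -0.31, and AIFM1 -0.24. With total counts DLST did not pass (-0.10), and the other 10 genes did, where 12.4% of all genes were lower.

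Short stretches of promoter are shown for members of different response, because letters recognised by NRF1 and by ETS factors such as GABP are known from promoters of respiratory genes. They were read from RefSeq (GRCh38.p14) in the 250 bases before each start, on both strands, for 31 of the 43 members. The half-site GCGCA followed at once by its reverse complement (NRF1 type) was in 2 of 31 member promoters (6.45%), in 1 of 10 promoters of members lower with TMM, and in 1.48% of 15843 promoters of protein-coding genes. The letters CCGGAAG (ETS type) were in 10 of 31 (32.3%), in 2 of those 10, and in 11.8% of all. In the lines below capitals mark the letters found. SDHD and ATP5PD were lower with TMM, and ATP5F1C and SDHB did not pass.
SDHD, chr11:112086748-112086787, plus strand: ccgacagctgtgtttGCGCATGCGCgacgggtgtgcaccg
ATP5PD, chr17:75047049-75047085, minus strand: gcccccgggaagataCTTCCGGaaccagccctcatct
ATP5F1C, chr10:7788140-7788176, plus strand: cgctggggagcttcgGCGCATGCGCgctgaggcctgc
SDHB, chr1:17054139-17054175, minus strand: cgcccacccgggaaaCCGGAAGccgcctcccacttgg
The letters stood in promoters of both kinds, and SDHA, with the largest called fall, had neither in this window.

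The 34 genes that the rule found in all tables allow the mRNA level to be set beside the effect on growth, as a description across genes. The RNA is that of the libraries labelled Hep3B, in which the hepatocyte markers were near 0. The Pearson correlation of log2 FPKM plus 1 in wild type with NormZ of vehicle against T0 was -0.28 in Hep3B (Spearman rho -0.19) and -0.32 in SNU-398 (rho -0.17), whose RNA was not measured here. The log2 fold change in the libraries labelled PSTK-KO and NormZ in Hep3B had r = -0.20 (rho -0.34, 33 genes). ATP5A1, the member with the lowest mean NormZ over inhibitors in Hep3B (ATP5F1A in the RNA table), and ATP5MC1 were both lower in mRNA, but ATP5G1, the guide-table name of ATP5MC1, had a mean NormZ of 0.54.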

How the data were processed

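Guide counts were deposited by the authors as raw read counts per guide, matched to the library with Bowtie2. RNA read counts per gene were deposited by the authors from HISAT2 2.0.5 alignments counted with featureCounts 1.5.0-p3, and FPKM values per library were deposited by the authors beside them. The genome build of the RNA files is not given in a usable form in the sources used here (the notes name mm9 for human genes). The size-factor-scaled signal values, log2 fold changes and p-values that the authors deposited from their own DESeq2 comparison were not used.

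NormZ was computed by the steps of DrugZ in Python 3.11.15: scaling to 10000000 counts per library, a pseudocount of 5, log2 ratios of same-numbered libraries, a spread estimated over 1000 guides of similar control count, and a sum over the observations that were not 0, divided by the square root of their number and standardized over all genes. One-sided normal p-values were adjusted by Benjamini-Hochberg over all genes. Summed guide counts and RNA counts were tested with edgeR 4.0.16 (TMM scaling, quasi-likelihood test, adjusted over all genes). DESeq2 1.42.0 and limma 3.58.1 on log2 FPKM (pseudocounts 1 and 0.1) were alternatives. The SE of a log2 fold change is its size over the square root of the F statistic. The NormZ and edgeR steps were tested on simulated data. Differences between the lines used a two-sided normal test of the NormZ difference.

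The members and gene lists were chosen with earlier results of these data known. Genes named were members called in vehicle against T0 or in the same direction in 3 or more of the 12 inhibitor screens, the 3 lowest and highest mean NormZ per line, the 8 largest called RNA changes in each direction, and the core subunits. ATP5H, UQCR11, UQCRB, ATP5L2 and UQCR10 with single inhibitors, the members named at an unadjusted p under 0.05, SDHAF4, and the related genes named were chosen after their values were seen. Per-guide intervals were not computed, and the even counts limit what a count below 10 can show.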

Additional observations from a re-analysis of the deposited data

How the results depend on the processing

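edgeR on summed counts differs from NormZ in the test, in the threshold (adjusted p under 0.05 against unadjusted p under 0.01) and in summing the guides, and which of these moved the counts was not tested. It called 18 members lower in vehicle against T0 in Hep3B (1 by NormZ), and over the 6 inhibitors 117 lower calls (2 by NormZ) and 34 higher (0) in Hep3B and 40 lower (6) and 23 higher (2) in SNU-398. With the replicate block edgeR gave 18, 116, 34, 39 and 23, in the same order. Of all genes, edgeR without the block called 33.5% lower in vehicle against T0 in Hep3B. With an inhibitor it called 33.2% to 41.7% lower and 28.7% to 35.2% higher in Hep3B. In SNU-398 these were 2.38% to 23.2% and 2.4% to 21.1%. NormZ called at most 1.57% of all genes in a given direction. Without the second Erastin library, added after seeing the data, edgeR gave 67 lower and 34 higher inhibitor calls in SNU-398. These sums include the Erastin comparison, which then rests on 1 library. The shares of all genes rose too, to 13.8% to 31.9% lower and 14.1% to 29.2% higher. In vehicle against T0 that fit gave 10 members lower (3 with the library), where 19.9% of all genes were lower (6.75% with it). With guides of at least 30 mean control counts the higher calls in SNU-398 went to 0, and with every guide and library counted as an observation, chosen after seeing the data, 1 higher call appeared in Hep3B. Leaving out 1 library at a time gave 1 to 2 members lower in vehicle against T0 in Hep3B (2 without the second T0 library) and 1 to 3 in SNU-398 (1 without the first vehicle library), 1 to 2 higher inhibitor calls in SNU-398 (1 without the second inhibitor libraries) and 5 to 9 lower ones (9 without the first inhibitor libraries). UQCRB with Erastin in SNU-398 ran from -4.55 to 0.22 and turned in direction without the first Erastin library. In RNA, 16 members lower became 7 with total-count scaling and 8 and 8 with limma on log2 FPKM plus 1 and plus 0.1, and 3 higher became 0 and 0 with limma and 1 with DESeq2. Of all genes, total-count scaling had 12.4% lower. The 2 limma fits had 1766 and 1786 of 21999 genes lower and 1486 and 1518 higher, and DESeq2 had 1898 of 16660 higher. Leaving out 1 library gave 10 to 17 lower (10 without the second PSTK-KO library) and 0 to 4 higher (0 without the third PSTK-KO library, 1 without the first wild-type library). Those fits tested 15741 to 15847 genes and called 2124 to 2532 of them lower and 1924 to 2343 higher. Single values were also followed under the alternatives, in the screens only for the 14 calls, so a gained call could not appear. There 113 values kept direction and call, 13 lost the call and 1 turned in direction. In RNA, over all 41 members tested, 454 values kept their call or its absence, 66 lost the call and 13 gained it. Members without a call could turn in direction: with total counts ATP5PB went from -0.04 to 0.03 and UQCRQ from -0.03 to 0.04. The cause of these changes was not tested. Counts under about 30 per guide limit the screens.

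Replicate numbers were used to pair libraries in NormZ, as DrugZ does, and without the replicate block the counts of calls were 1, 2, 0, 3, 6 and 2, as before. In RNA the correlation of deviations between same-numbered libraries was 0.0256, 0.0669 and -0.00269, so the numbers are not shown to pair the libraries. With the replicate block 20 of 41 members were lower and 3 higher, where 2892 and 2655 of 15370 genes were.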
